A study of Mus musculus with 24 samples.

Results

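The 10 genes described here encode regulators of G-protein signalling (RGS proteins): Rgs2, Rgs4, Rgs8 and Rgs16 of the R4 subfamily, Rgs6, Rgs7 and Rgs9 of the R7 subfamily, Rgs10 and Rgs12 of the R12 subfamily, and Rgs20 of the RZ subfamily. They were taken by symbol from the 55254 genes of the count tables, and all 10 passed the filter on low counts in every fit. The set was chosen by values from NeuN+ nuclei: Rgs4 had been found lower there in knockouts of 2 genotypes. Differences between knockout and WT in NeuN+ nuclei are therefore a description: counts of calls are printed beside those of all genes, but no p-value of a member is given and nothing is read from them. Tests are given for NeuN- nuclei and for NeuN+ against NeuN- nuclei. Nuclear RNA was sequenced from hippocampi of 6 months old male C57BL/6N mice that were WT, deficient in the DNA glycosylase Mutyh (Mutyh-/-), deficient in the DNA glycosylase Ogg1 (Ogg1-/-), or deficient in both (Mutyh-/-xOgg1-/-, here DKO). Nuclei were fixed with formaldehyde, stained for NeuN, a protein of neuronal nuclei, and sorted into NeuN+ and NeuN-, with 3 libraries of each genotype and fraction and 24 in all. The DKO mice came from a cross of the single knockouts. The study's methods speak of independent biological replicates in general, and for RNA of nuclei pooled from several animals of a genotype. They do not tie each library to a pool, so p-values measure the spread between these libraries, which may be technical in part. The labels place NeuN+ libraries on sequencing lanes 2 and 4 and NeuN- libraries on lanes 1 and 3, so lane and fraction cannot be told apart.

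A receptor that binds its ligand loads GTP onto the alpha subunit of a G protein, and signalling by that subunit and by the freed beta-gamma pair lasts until the GTP is hydrolysed. RGS proteins bind the active alpha subunit and speed up this hydrolysis, which shortens the signal. In the hippocampus they act on Gi/o and Gq signalling from receptors for glutamate, acetylcholine, GABA, serotonin and endocannabinoids, at synapses and at the potassium channels that these receptors open.

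Total counts per library ranged from 56563586 to 96192142 (median 70434612), and levels are given in CPM, the count scaled to a common library size with TMM factors over all 24 libraries. The summed level of 6 neuronal markers was between 4456 and 5190 CPM in NeuN+ and between 259.6 and 382.6 CPM in NeuN- libraries, and that of 5 oligodendrocyte markers between 117.4 and 139.5 CPM in NeuN+ and between 4501 and 6765 CPM in NeuN-. No marker of these lists was at 0 in either fraction. The summed levels of markers of hippocampal fields CA1, CA2 and CA3 were higher in NeuN+ than in NeuN- libraries. For 5 markers of dentate granule cells the sum was lower in NeuN+ (621 to 784.6 CPM) than in NeuN- (1262 to 1699 CPM), although 2 of the 5 were called higher in WT NeuN+ and 1 lower. Mutyh RNA was not lower in the knockouts: its mean in NeuN+ was 1.23 CPM ± 0.0718 (SD, n = 3) in WT, 10.9 CPM ± 0.901 in libraries labelled Mutyh-/- and 9.94 CPM ± 1.95 in those labelled DKO. Ogg1 RNA was 3.30 CPM ± 0.502 in WT and 3.46 CPM ± 0.227 in libraries labelled Ogg1-/- in NeuN+. Counts per gene do not show which exons were read, so genotypes are named as in the labels.

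The plot of levels by library shows the members in all 8 groups. In WT, Rgs4, Rgs6, Rgs7, Rgs8 and Rgs9 were higher in NeuN+ libraries and Rgs2, Rgs10, Rgs12 and Rgs20 in NeuN- libraries, without overlap. The share of all genes without overlap between the fractions was not computed. An unadjusted p under 0.05 between them (edgeR quasi-likelihood test) was seen for 9 members, beside 74.25% of all tested genes. Nothing is therefore read from this division. Rgs16 was near 1 CPM in both fractions, from 25 to 113 reads per library over all 24 libraries.

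**Figure D1:**
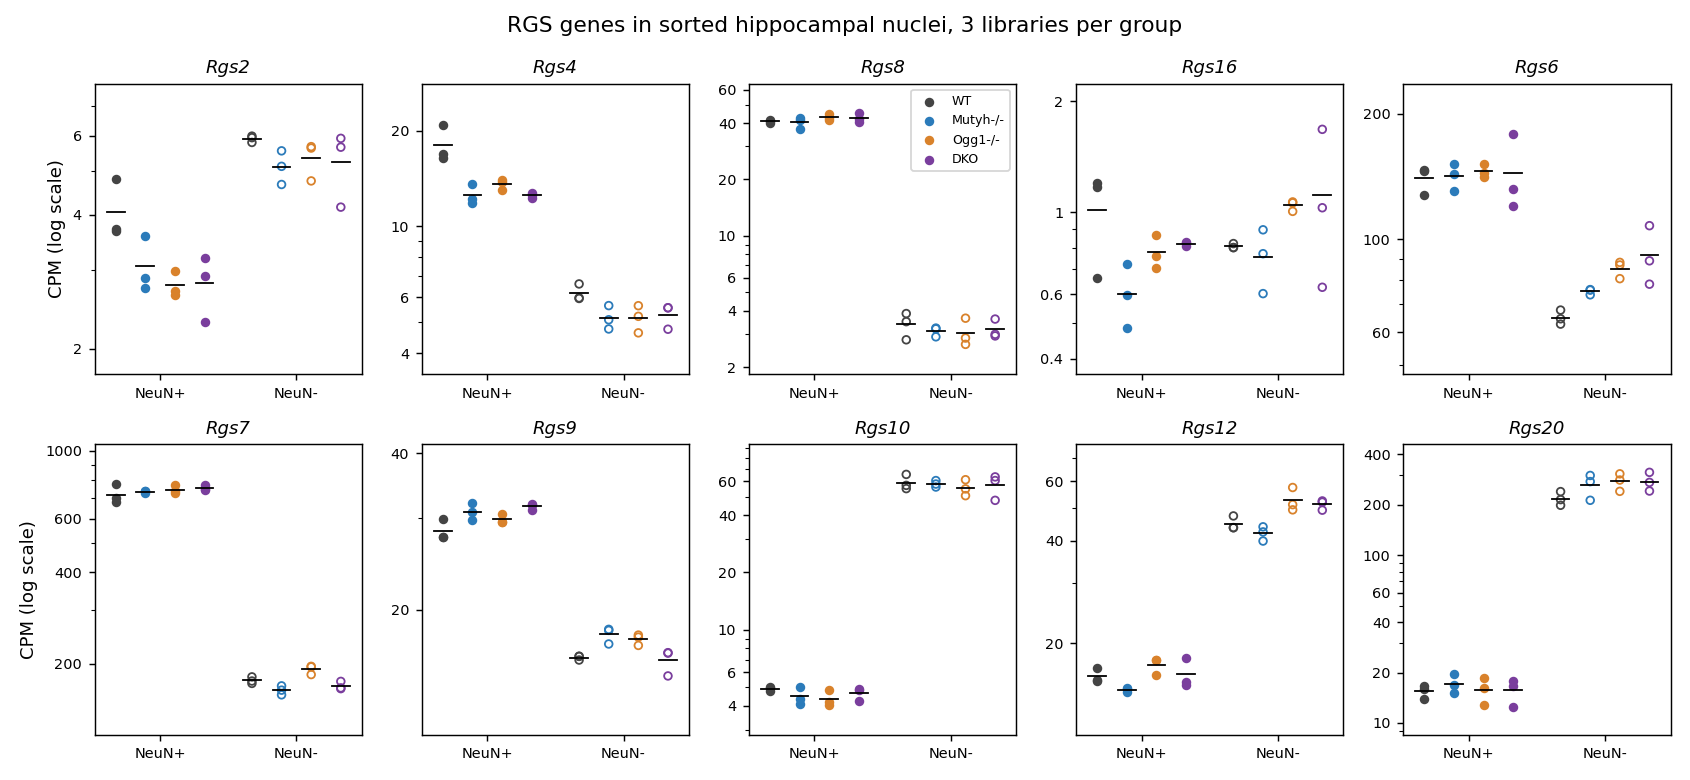
Level of each RGS gene (CPM on a log axis, with a separate scale for each gene) in every library, in NeuN+ (filled) and NeuN- (open) nuclei, with genotypes by colour and a bar at the mean of 3 libraries. In NeuN+ the 3 WT libraries of Rgs4 sit between 16.4 and 20.8 CPM, above all 9 knockout libraries, while Rgs10 and Rgs20 are lower in all NeuN+ than in all NeuN- libraries.

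Rgs4, Rgs2 and Rgs16, small R4 proteins made of little more than the RGS domain, had negative log2 differences from WT in NeuN+ nuclei of each knockout genotype, of which those of Rgs4 in Mutyh-/- and DKO were past both limits that define a call. Rgs8 of the same subfamily stayed within 0.06 of WT. Rgs4 acts on Gi/o and Gq subunits and is known in neurons for dampening muscarinic signalling. In NeuN+ libraries Rgs4 was at 16.9, 20.8 and 16.4 CPM in WT and at 12.2, 11.8 and 13.6 CPM in Mutyh-/-. It was at 14.0, 13.8 and 13 CPM in Ogg1-/- and at 12.5, 12.7 and 12.3 CPM in DKO. All 9 knockout libraries were thus below the 3 WT libraries, and the second WT library was the highest. The means were 18.05 CPM ± 2.43 (SD, n = 3) in WT, 12.5 CPM ± 0.923 in Mutyh-/-, 13.6 CPM ± 0.541 in Ogg1-/- and 12.5 CPM ± 0.187 in DKO. The fitted log2 difference from WT was -0.52 (SE 0.08) in Mutyh-/-, -0.42 (SE 0.08) in Ogg1-/- and -0.54 (SE 0.08) in DKO. Against the limits that define a differentially expressed gene here (adjusted p under 0.05 and an absolute log2 difference above 0.5), Rgs4 lay just inside the fold limit in Mutyh-/- and DKO and just outside it in Ogg1-/-. Without the second WT library the differences were -0.39, -0.31 and -0.42 in the same order, all outside the fold limit. Of the 10 members, 1 was called in Mutyh-/-, 0 in Ogg1-/- and 1 in DKO (edgeR quasi-likelihood test), where 0.428%, 0.574% and 0.302% of all tested genes were called. An unadjusted p under 0.05 was seen for 4, 2 and 3 members, beside 18.7%, 12.3% and 13.5% of all tested genes. Since these values chose the set, nothing is read from these counts.

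Rgs2, which prefers Gq subunits, was at 3.72, 4.80 and 3.67 CPM in the WT NeuN+ libraries and at 3.57, 2.73 and 2.89 CPM in Mutyh-/-. It was at 2.69, 2.99 and 2.65 CPM in Ogg1-/- and at 3.20, 2.92 and 2.30 CPM in DKO. The 9 knockout libraries were again below the 3 WT libraries, with the second WT library highest and the first Mutyh-/- library next to the WT range. The log2 differences were -0.40 (SE 0.15), -0.56 (SE 0.14) and -0.55 (SE 0.14) in Mutyh-/-, Ogg1-/- and DKO, so that Rgs2 lay past the fold limit in Ogg1-/- and DKO but outside the limit on the adjusted p. Rgs16, known for its daily rhythm in the brain's circadian centre, was at 0.665, 1.199 and 1.17 CPM in WT, which is 41, 74 and 71 reads. In the 9 knockout libraries it was between 0.484 and 0.869 CPM, so that 2 WT libraries were above and 1 was within the knockout range. Its log2 differences were -0.73 (SE 0.23), -0.40 (SE 0.22) and -0.32 (SE 0.22), the largest errors of the 10 members.

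The other members stayed close to WT in NeuN+ nuclei. Rgs8, which accelerates the opening and closing of G-protein-gated potassium channels, was at 40.9, 40.0 and 41.4 CPM in WT and between 37.0 and 45.0 CPM in the knockouts. Rgs7, an R7 protein, was between 677.6 and 776.5 CPM in WT and between 725.7 and 775.5 CPM in the knockouts. Over Rgs6, Rgs7, Rgs8, Rgs9, Rgs10, Rgs12 and Rgs20 the log2 differences in the 3 knockouts lay between -0.20, for Rgs10 in Ogg1-/-, and 0.15, for Rgs20 in Mutyh-/-. The median log2 difference of the 10 members was -0.07, 0.02 and 0.00 in Mutyh-/-, Ogg1-/- and DKO, beside -0.009, 0.009 and -0.001 over all tested genes. In each knockout 3 members had libraries that did not overlap those of WT (Rgs2 and Rgs4 throughout, with Rgs12 lower in Mutyh-/-, Rgs8 higher in Ogg1-/- and Rgs9 higher in DKO), where 21.6%, 20.1% and 17.5% of all tested genes did so in Mutyh-/-, Ogg1-/- and DKO.

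**Figure D2:**
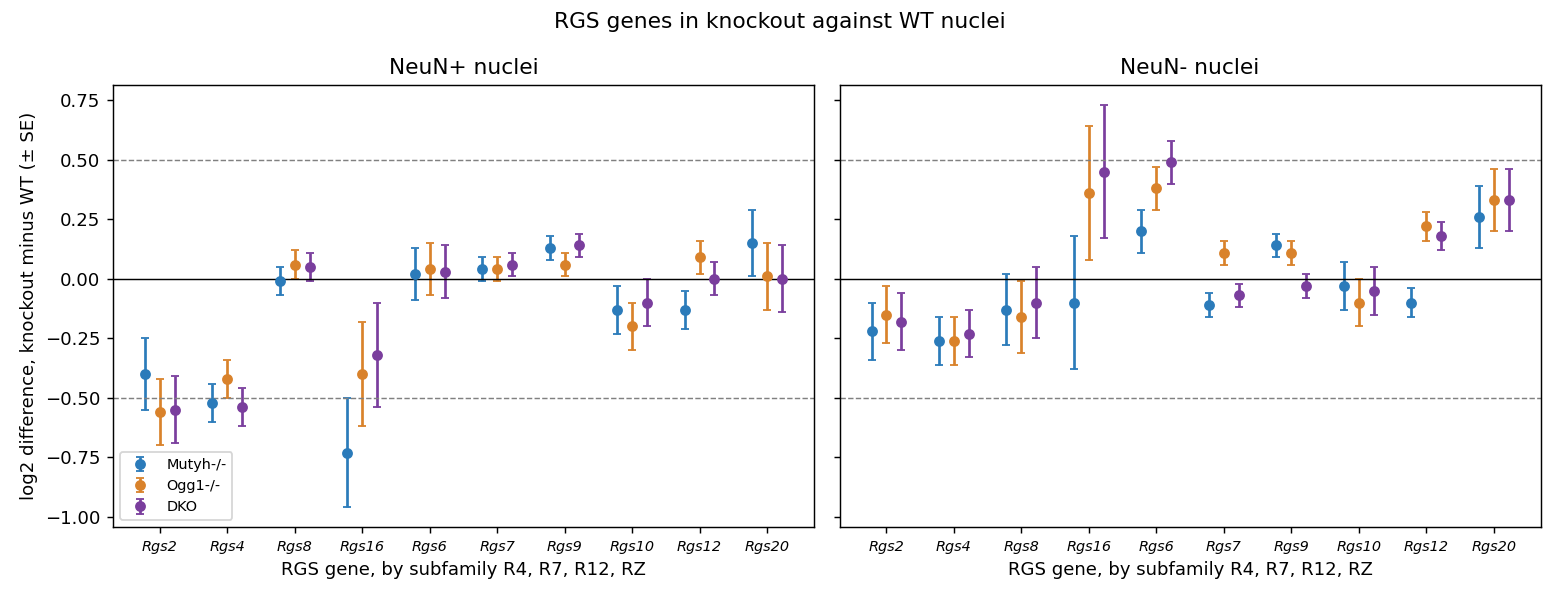
Log2 difference from WT of each RGS gene in Mutyh-/-, Ogg1-/- and DKO, in NeuN+ (left) and NeuN- nuclei (right), with error bars of ± 1 SE from the fit and dashed lines at the limit of 0.5. In NeuN+ Rgs2, Rgs4 and Rgs16 lie between -0.32 and -0.73, and the other 7 members between -0.20 and 0.15.

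Rgs2, Rgs4 and Rgs16 have the shortest loci of the 10 members, a feature noticed after their values were seen. Rgs16 overlapped WT in all 3 knockouts, and neither it nor Rgs2 was called in any. In GENCODE vM21 (GRCm38) Rgs2 spans 4.8 kb at chr1:143999338-144004161, Rgs16 spans 5.1 kb at chr1:153740349-153745468 and Rgs4 spans 6.2 kb at chr1:169741477-169747642, with 4, 5 and 4 exon blocks. The other 7 members span from 45.1 kb (Rgs10) to 573.8 kb (Rgs6). Among other RGS genes, Rgs3, Rgs5, Rgs13 and Rgs22 also had negative values in NeuN+ of each knockout, between -0.66 and -0.19, none called. Those of Rgs11, Rgs14, Rgs17 and Rgs19 lay between -0.12 and 0.21. Rgs3, at chr4:62559847-62704001, has a longer locus than Rgs2, Rgs4 and Rgs16. Of the 10 members 6 lie on chromosome 1, and none lies on the chromosome of Ogg1 (6) or Mutyh (4). Rgs8 lies on the same strand 40.0 kb before Rgs16. These neighbours were not tested against each other, and the part of position in their values was not tested. Other protein-coding genes with loci under 10 kb had median log2 differences in NeuN+ of -0.04, -0.06 and -0.04 in Mutyh-/-, Ogg1-/- and DKO, and those in the longest of 4 classes of length of 0.02, 0.03 and 0.03, a comparison added after the data were seen. Relative to the median for loci under 10 kb, Rgs4 was lower by a log2 difference of -0.48, -0.36 and -0.50. Ribosomal protein genes, which are also short, took 0.0985% to 0.104% of all counts in WT NeuN+ libraries and 0.0790% to 0.0976% in the knockouts. The summed level of 6 interneuron markers was 151.9 to 162 CPM in WT NeuN+ libraries and 103.8 to 140.1, 131.5 to 150.6 and 126.5 to 131.9 CPM in Mutyh-/-, Ogg1-/- and DKO (median log2 differences -0.37, -0.17 and -0.28). The part of either in the lower Rgs4 level was not tested, and in sorted bulk nuclei fewer nuclei of a type and less RNA per nucleus cannot be told apart.

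**Figure D3:**
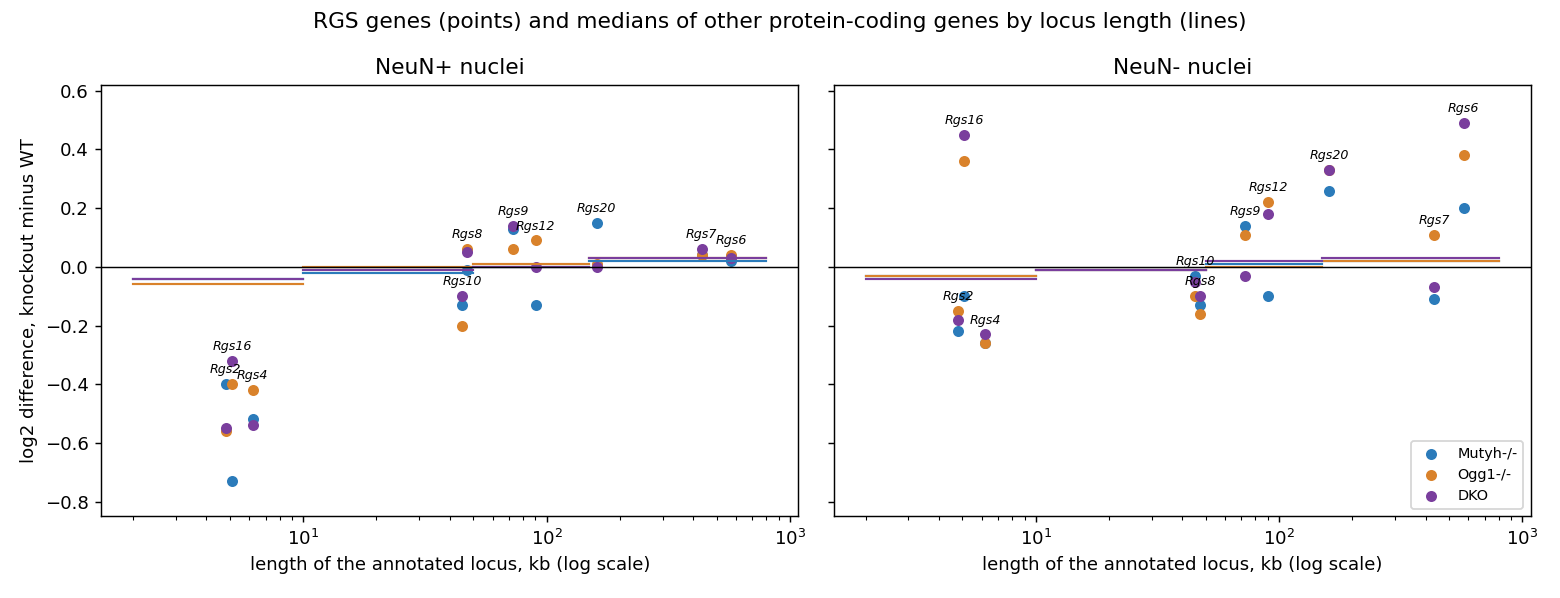
Log2 difference from WT (points, 1 colour per knockout) of each RGS gene against the length of its annotated locus in kb on a log axis, in NeuN+ (left) and NeuN- nuclei (right). Horizontal lines give the median of other protein-coding genes in 4 classes of locus length; in NeuN+ the 3 loci of 4.8 to 6.2 kb lie at -0.32 or lower and below their line, whereas in NeuN- Rgs16 lies at 0.36 and 0.45 in Ogg1-/- and DKO.

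The sequence before the start site is given for Rgs4, on whose values the set was chosen, and for Rgs2 and Rgs16. Together with Rgs4 these had the most negative values of the members in NeuN+ nuclei of each knockout. Each is the 250 bases before the RefSeq start (GRCm38.p6), 5′ to 3′ on the gene's strand, at chr1:169747643-169747892 (minus strand) for Rgs4, chr1:144004150-144004399 (minus strand) for Rgs2 and chr1:153740103-153740352 (plus strand) for Rgs16, with TGACG on either strand and TATAAA in capitals.
Rgs4: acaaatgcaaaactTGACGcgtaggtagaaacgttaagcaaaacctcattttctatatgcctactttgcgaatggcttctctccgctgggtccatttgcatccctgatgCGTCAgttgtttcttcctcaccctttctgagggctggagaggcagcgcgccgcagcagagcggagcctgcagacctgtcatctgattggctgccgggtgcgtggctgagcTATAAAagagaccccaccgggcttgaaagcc
Rgs2: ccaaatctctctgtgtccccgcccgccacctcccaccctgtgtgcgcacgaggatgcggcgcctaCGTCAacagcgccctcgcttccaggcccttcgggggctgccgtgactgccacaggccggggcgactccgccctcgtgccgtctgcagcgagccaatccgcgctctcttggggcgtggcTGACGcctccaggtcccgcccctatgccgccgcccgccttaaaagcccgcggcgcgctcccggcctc
Rgs16: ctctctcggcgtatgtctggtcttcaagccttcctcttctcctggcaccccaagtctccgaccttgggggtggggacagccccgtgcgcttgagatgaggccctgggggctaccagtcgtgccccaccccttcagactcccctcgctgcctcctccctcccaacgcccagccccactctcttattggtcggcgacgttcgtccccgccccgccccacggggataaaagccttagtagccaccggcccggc
The letters TGACG, the core of the site bound by the cAMP-response factor CREB, began at -236 in Rgs4 and their reverse complement at -141, counted from the start. In Rgs2 they began at -67 and the reverse complement at -185, and Rgs16 held neither. Of the 32817 RefSeq windows of this length, 17.7% held TGACG on either strand. The whole palindrome TGACGTCA, in 1.5% of windows, was in none of the 3. TATAAA, in 12.4% of windows, stood at -31 in Rgs4 and in neither of the other two. Rgs2 held 30 CpG dinucleotides, Rgs16 held 17 and Rgs4 held 13, against a median of 6 over all windows. A window was found for 9 of the 10 members, and 3 were listed for Rgs8, of which 1 held TGACG, as did 1 of 2 for Rgs12.

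The 5 genes most like Rgs4 over the 12 NeuN+ libraries, among 13091 genes with a mean of at least 5 CPM, were Tmsb10, Zfp133-ps, Nudt4, Kif1b and Gm15337, with Pearson r of log2 CPM of 0.927, 0.926, 0.914, 0.914 and 0.909. With genotype means removed r was 0.54, 0.71, 0.85, 0.37 and 0.55 in the same order, lower for each gene and lowest for Kif1b, a kinesin motor. Tmsb10 encodes an actin-binding thymosin. Among the members, r with Rgs4 was 0.80 for Rgs2 (Spearman's rho 0.57, r 0.51 with genotype means removed) and 0.66 for Rgs16 (0.49 and 0.56). It was -0.74 for Rgs9, -0.60 for Rgs7 and -0.28 for Rgs8, and between -0.03 and 0.33 for the other 4. After removal of genotype means r was -0.12 for Rgs9, -0.61 for Rgs7 and -0.40 for Rgs8. For Rgs10, Rgs6, Rgs20 and Rgs12 it was then -0.27, 0.15, 0.23 and 0.29. In NeuN+ the second WT library was the highest for Rgs4, Rgs2 and Rgs16, and r without it was not computed. The libraries share depth and sorting, so these are descriptions.

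In NeuN- nuclei no member passed the limits in any knockout. With edgeR's quasi-likelihood test 0 of 10 members were called in Mutyh-/-, Ogg1-/- and DKO, where 0.273%, 0.229% and 0.116% of all tested genes were called. DESeq2 also called 0 members in each. An unadjusted p under 0.05 was seen for 3, 5 and 4 members, beside 13.7%, 11.8% and 12.4% of all tested genes. The knockout libraries did not overlap those of WT for 5, 8 and 4 of the 10 members, beside 19.2%, 19.4% and 16.8% of all tested genes, and the 3 comparisons share their WT libraries. The median log2 difference of the members was -0.10, 0.11 and -0.04, and that of all tested genes -0.005, 0.001 and 0.007.

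Among the R4 members in NeuN-, Rgs4 was at 5.97, 5.94 and 6.60 CPM in WT. It was at 5.09, 5.64 and 4.77 CPM in Mutyh-/-, at 5.22, 5.64 and 4.63 CPM in Ogg1-/- and at 4.76, 5.56 and 5.55 CPM in DKO. All 9 knockout libraries were below the 3 WT libraries here too, by less than in NeuN+. The log2 difference was -0.26 (SE 0.10, adjusted p = 0.276) in Mutyh-/-, -0.26 (SE 0.10, adjusted p = 0.313) in Ogg1-/- and -0.23 (SE 0.10, adjusted p = 0.377) in DKO, and whether the effect differed between the fractions was not tested. Rgs2 had log2 differences of -0.22, -0.15 and -0.18 and Rgs8 of -0.13, -0.16 and -0.10, with adjusted p between 0.461 and 0.825 for these 2 genes. Rgs16, in contrast, had values of -0.10, 0.36 and 0.45 with an SE of 0.28, and its DKO libraries ranged from 0.626 to 1.68 CPM. Neuronal RNA in this fraction was at 80.3 to 97.6 CPM for Rbfox3, the gene of NeuN, in WT, and its mean was 90.0 CPM in WT, 80.3 in Mutyh-/-, 73.1 in Ogg1-/- and 67.2 in DKO. The 6 neuronal markers had median log2 differences of -0.13, -0.26 and -0.30 in NeuN-, and their part in the values of Rgs2, Rgs4 and Rgs8 was not tested.

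The R7 members carry a domain that binds the atypical beta subunit Gnb5, without which they are unstable. Rgs6 was at 67.8, 64.6 and 62.7 CPM in WT NeuN- libraries and at 73.7, 75.9 and 75.7 CPM in Mutyh-/-. It was at 80.6, 86.9 and 88.1 CPM in Ogg1-/- and at 78.2, 88.9 and 107.9 CPM in DKO. All 9 knockout libraries were above the 3 WT libraries, and the DKO libraries were the most spread. The log2 difference was 0.20 (SE 0.09, adjusted p = 0.370), 0.38 (SE 0.09, adjusted p = 0.133) and 0.49 (SE 0.09, adjusted p = 0.0695), so that none passed. Without the first DKO library the value in DKO was 0.59 with an adjusted p of 0.0102, which passes both limits. Over its 14 alternatives in DKO the log2 difference lay between 0.36 and 0.59 and the adjusted p between 0.000229 (DESeq2, log2 difference under the fold limit) and 0.231. In NeuN+ the same gene differed from WT by 0.02, 0.04 and 0.03. Rgs7, which with Gnb5 sets how fast GABA-B receptors switch potassium channels, differed by -0.11, 0.11 and -0.07, and Rgs9, known for ending the light response in photoreceptors and for dopamine signalling in the striatum, by 0.14, 0.11 and -0.03, none passing.

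Rgs20, which acts on the Gz subunit, was at 199.0, 215.1 and 240.1 CPM in WT NeuN- libraries. In the knockouts it was between 213.1 and 312.8 CPM. The Ogg1-/- and DKO libraries were above all WT libraries, whereas those of Mutyh-/- overlapped them. The log2 differences were 0.26, 0.33 and 0.33 (SE 0.13 each) with adjusted p of 0.409, 0.340 and 0.342. Rgs12, a large scaffold with a GoLoco motif, was at 43.8, 43.8 and 47.4 CPM in WT and between 49.3 and 57.5 CPM in Ogg1-/- and DKO, which did not overlap WT. Its log2 differences were -0.10, 0.22 and 0.18 in Mutyh-/-, Ogg1-/- and DKO, with adjusted p of 0.515, 0.206 and 0.299. Rgs10, a small protein best known from microglia, differed by -0.03, -0.10 and -0.05. Beside these values, the summed level of 6 astrocyte markers in NeuN- was 2779 to 3296 CPM in WT and 2815 to 3731, 3200 to 4072 and 3444 to 3610 CPM in Mutyh-/-, Ogg1-/- and DKO (median log2 differences 0, 0.23 and 0.25). The sum of 5 oligodendrocyte markers was 5911 to 6645 CPM in WT and 5505 to 6765, 5045 to 5667 and 4501 to 5578 CPM in the same order, below WT without overlap in Ogg1-/- and DKO. Ribosomal protein genes took 0.127% to 0.131% of counts in WT and 0.108% to 0.122% over the knockouts, also without overlap. Microglial markers were at 661.3 to 771.1 CPM in WT and 589.2 to 766.9 CPM over the knockouts. The part of any of these in the values of Rgs6, Rgs12 and Rgs20 was not tested.

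In WT, 4 of the 10 were higher and 3 lower in NeuN+ nuclei (edgeR quasi-likelihood test, adjusted p under 0.05 and an absolute log2 difference above 1), where 21.3% and 21.6% of all tested genes were called higher and lower. The 4 higher include Rgs4, whose NeuN+ values chose the set, so nothing is read from the share of members called. In Mutyh-/-, Ogg1-/- and DKO 3 were higher and 3 lower, beside 21.8%, 21.7% and 20.8% of all tested genes higher and 22.1%, 22.2% and 23.6% lower. The missing gene in the knockouts was Rgs6, whose log2 difference was 1.11 (SE 0.11) in WT and 0.92, 0.77 and 0.65 in Mutyh-/-, Ogg1-/- and DKO (SE 0.11 each, adjusted p at most 1.82e-05).

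Rgs8 had the largest difference toward NeuN+, at 40.9, 40.0 and 41.4 CPM in WT NeuN+ and 2.80, 3.50 and 3.86 CPM in WT NeuN- libraries. Its log2 difference was 3.60 (SE 0.11, adjusted p = 2.42e-18) in WT and between 3.70 and 3.81 in the knockouts. Rgs7 was at 776.5, 677.6 and 699.2 CPM in WT NeuN+ and 175.5, 181.1 and 172.4 CPM in WT NeuN- libraries. The libraries of these 2 genes stood wholly apart by fraction in every genotype. The log2 difference of Rgs7 was 2.03 (SE 0.05, adjusted p = 1.37e-19) in WT and between 1.96 and 2.17 in the knockouts. For Rgs4 it was 1.55 (SE 0.09) in WT and 1.28, 1.40 and 1.25 in Mutyh-/-, Ogg1-/- and DKO, past the limits in each. These values rest on the NeuN+ libraries that chose the set, WT included, so no p is given for them. Rgs9 was higher in NeuN+ by 0.81 (SE 0.05, adjusted p = 1.27e-12) in WT, under the fold limit. Markers of the striatum, where Rgs9 is most known, were at 7.33 to 8.72 CPM summed over 5 genes in WT NeuN+ and 9.67 to 12.02 CPM in WT NeuN-, with 3 of the 5 called higher and 2 lower in NeuN+.

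Toward NeuN-, Rgs20 was at 16.6, 15.9 and 13.9 CPM in WT NeuN+ and 199.0, 215.1 and 240.1 CPM in WT NeuN- libraries. Its log2 difference was -3.81 (SE 0.16, adjusted p = 1.44e-15) in WT and -3.94, -4.13 and -4.14 in Mutyh-/-, Ogg1-/- and DKO. Rgs10 was at 4.96, 4.80 and 5.05 CPM in WT NeuN+ and 65.3, 57.2 and 55.0 CPM in WT NeuN- libraries. For both genes every NeuN- library was above every NeuN+ library. The log2 difference of Rgs10 was -3.58 (SE 0.11, adjusted p = 2.97e-18) in WT and between -3.62 and -3.70 in the knockouts. Microglial markers, beside it, were at 96.6 to 99.8 CPM in WT NeuN+ and 661.3 to 771.1 CPM in WT NeuN-. Rgs12 was lower in NeuN+ by -1.49 (SE 0.07, adjusted p = 8.85e-15) in WT and by -1.53, -1.61 and -1.66 in the knockouts. Rgs2 had a lower level in NeuN+, by -0.54 (SE 0.14, adjusted p = 0.00139) in WT and by -0.74, -0.95 and -0.91 in Mutyh-/-, Ogg1-/- and DKO, under the fold limit throughout. Rgs16 did not pass in any genotype, at 0.32 in WT (SE 0.26, adjusted p = 0.265) and -0.31, -0.43 and -0.43 in Mutyh-/-, Ogg1-/- and DKO (adjusted p 0.306, 0.138 and 0.130). When libraries were scaled by their totals in place of TMM factors, the median of all tested genes moved from -0.01 to -0.25 in WT, which ended the calls of Rgs6 in WT (0.87) and Rgs4 in DKO (0.97) and brought Rgs2 past the limit in Ogg1-/- and DKO (-1.19 in both).

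**Figure D4:**
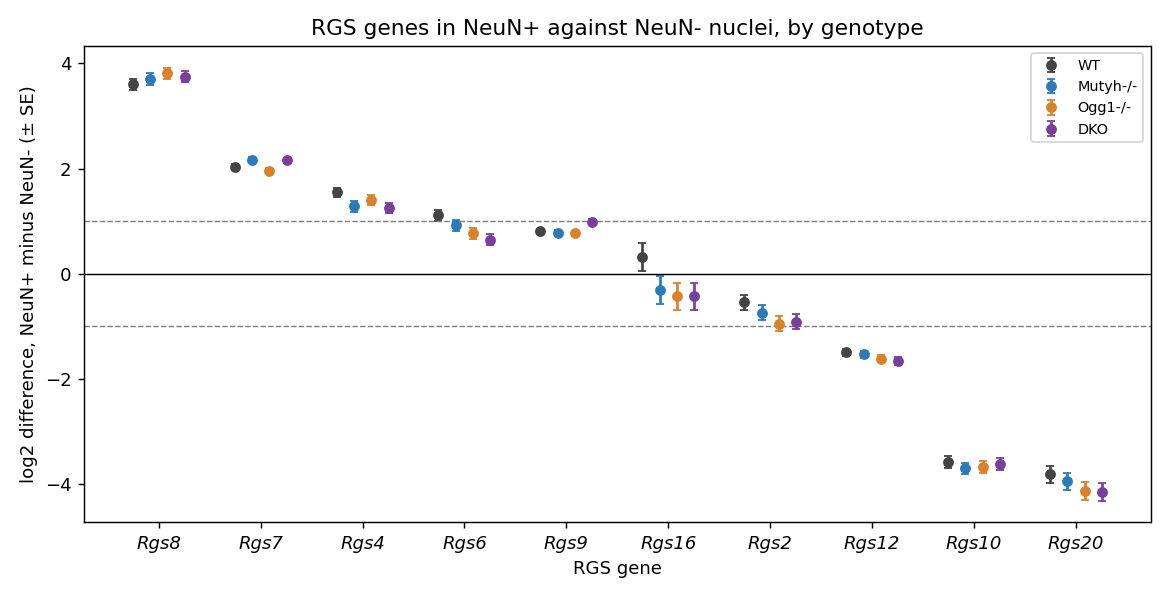
Log2 difference of NeuN+ minus NeuN- nuclei for each RGS gene in WT, Mutyh-/-, Ogg1-/- and DKO (error bars ± 1 SE from the fit of all 24 libraries), with genes ordered by the WT value and dashed lines at the limits of -1 and 1. Rgs8 lies highest at 3.60 in WT and Rgs20 lowest at -3.81, and Rgs6 is above 1 in WT and below it in the knockouts.

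Levels of different members can be set side by side only per length. The sources used here do not say whether reads in introns were counted, and nuclear RNA holds much of them, so each level was divided by the total length of exons and, as an addition made after the data were seen, by the length of the locus. Per kb of exon in WT NeuN+, Rgs7 was highest at 119.2 CPM per kb ± 8.65 (SD, n = 3), followed by Rgs6 at 14.0, Rgs4 at 5.83, Rgs9 at 4.44, Rgs8 at 4.23, Rgs20 at 3.65, Rgs10 at 2.89, Rgs12 at 1.88, Rgs2 at 1.12 and Rgs16 at 0.433 CPM per kb. No neighbours in this order had overlapping libraries. Per kb of locus the order changed, with Rgs4 highest at 2.93 CPM per kb ± 0.394 and Rgs7 next at 1.66, while Rgs6, the longest gene, fell to 0.244. On that scale Rgs8 (0.862) overlapped Rgs2 (0.841), and Rgs6 overlapped Rgs16 (0.198), which overlapped Rgs12 (0.177). In WT NeuN-, Rgs20 and Rgs10 came first on both scales, at 51.4 and 34.6 CPM per kb of exon without overlap and at 1.36 and 1.31 CPM per kb of locus with overlap. Rgs7 followed at 29.3 CPM per kb of exon and Rgs16 (0.346) and Rgs8 (0.351) were last and overlapped. Exons of Rgs8, Rgs16, Rgs6 and Rgs12 overlap an antisense gene by 70, 236, 77 and 467 bases, and those of Rgs20 overlap Atp6v1h by 127 bases and a pseudogene by 125 bases. The handling of strand in the counting is not given in the sources used here, so part of those counts is uncertain.

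The partners and targets of RGS proteins were read from lists of the same pathway. Beside the counts for these lists between fractions, 21.3% of all tested genes were called higher and 21.6% lower in WT NeuN+. Of 11 other RGS genes 10 were tested between the fractions in WT, and 4 were higher (Rgs11, Rgs13, Rgs14 and Rgs17) and 3 lower (Rgs1, Rgs3 and Rgs5) in NeuN+. Rgs1 was at 0 CPM in the WT NeuN+ libraries and at 0.305 CPM ± 0.0540 in NeuN-. Rgs14, a scaffold best known from CA2 pyramidal neurons, was at 19.0 CPM ± 1.27 in NeuN+ and 2.86 CPM ± 0.319 in NeuN- (log2 difference 2.73, SE 0.09), and Rgs3 at 3.59 CPM ± 0.538 and 125.6 CPM ± 7.86 (-5.13, SE 0.10). Among 4 tested partners of the R7 proteins 3 were higher in NeuN+, with Gnb5 at 1.79 (SE 0.06), the membrane anchor Rgs7bp at 2.47 (SE 0.07) and the receptor Gpr158 at 2.22 (SE 0.07), and Gpr179, an anchor of the retina, was at -0.99 (SE 0.30). These 3 went the same way between fractions as Rgs6 and Rgs7.

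Of 15 alpha subunits, the direct targets, 3 were higher (Gnaz, Gnal and Gna14) and 5 lower (Gnai2, Gnao1, Gna12, Gna13 and Gna15) in WT NeuN+. Gnaz, the subunit on which Rgs20 acts, was higher by 2.02 (SE 0.06), opposite to Rgs20 itself, and Gnai2 lower by -2.10 (SE 0.07). Gnao1, the abundant brain Go subunit, was at 484 CPM ± 14.5 in NeuN+ and 1236 CPM ± 45.2 in NeuN- (-1.35, SE 0.07). Of 14 beta and gamma subunits 3 were higher (Gng2, Gng4 and Gng13) and 5 lower (Gnb4, Gng5, Gng8, Gng11 and Gng12). Of 16 effectors 7 were higher (Adcy1, Adcy2, Adcy8, Adcy9, Kcnj3, Kcnj6 and Kcnj9) and 6 lower (Plcb2, Plcb3, Plcb4, Adcy5, Adcy7 and Kcnj5), and of 5 GoLoco proteins 3 were lower (Gpsm1, Gpsm2 and Gpsm3). Kcnj9, a subunit of the G-protein-gated potassium channels, was higher by 3.59 (SE 0.09). Of 30 Gi- and Gq-coupled receptors 22 were higher and 1, Grm3, lower, beside 21.3% and 21.6% of all tested genes. Among those higher were the muscarinic receptor genes Chrm1, Chrm2, Chrm3 and Chrm4, the GABA-B subunit gene Gabbr2, the serotonin receptor genes Htr1a and Htr2a, and the somatostatin receptor genes Sstr2, Sstr3 and Sstr4, with Chrm1 higher by 3.25 (SE 0.07) and Cnr1 by 2.79 (SE 0.09).

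Between knockouts and WT these lists held few calls. Of all tested genes 0.428%, 0.574% and 0.302% were called in NeuN+ of Mutyh-/-, Ogg1-/- and DKO, and 0.273%, 0.229% and 0.116% in NeuN-. In NeuN+ the gamma subunit Gng3 was called lower in DKO, at 8.99 CPM ± 0.995 against 13.1 CPM ± 1.17 in WT (log2 difference -0.56, SE 0.10). It also differed from WT by -0.49 (SE 0.10) in Mutyh-/- and -0.40 (SE 0.10) in Ogg1-/-, outside the fold limit. These comparisons share their libraries with the choice of the set, and no other gene of the 7 lists was called in any knockout in NeuN+. The NeuN- differences of Gng3 were -0.27, -0.27 and -0.26 in Mutyh-/-, Ogg1-/- and DKO (SE 0.08 each), not called. In NeuN- the glutamate receptor gene Grm7 was called lower in Ogg1-/- (233 CPM ± 4.595 against 424.2 CPM ± 18.4, log2 difference -0.87, SE 0.08, adjusted p = 0.000220) and in DKO (284 CPM ± 30.7, -0.59, SE 0.08, adjusted p = 0.0129), and no other. In NeuN- of Mutyh-/- Grm7 differed from WT by -0.22 (SE 0.08), not called, and in WT it was higher in NeuN+ than in NeuN- by 2.01 (SE 0.08). Grm7 lies on chromosome 6, 1.8 Mb from Ogg1. The part of that position, and that of the lower neuronal markers in NeuN- of the knockouts, was not tested.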

How the data were processed

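Nuclear RNA of sorted NeuN+ and NeuN- hippocampal nuclei was sequenced (formaldehyde-fixed nuclei, SMARTer Stranded Total RNA kit, paired-end reads), and per the labels and the study's methods the authors aligned read pairs to GRCm38 with HISAT2 2.1.0 and SAMtools 1.10 and counted them per gene of Ensembl release 102 with featureCounts. The values deposited by the authors are raw counts per gene for 24 libraries. Strand, multi-mapping and intron handling are not given in the sources used here.

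Groups came from the labels. Counts were analysed in R 4.3.3 with edgeR 4.0.16: filterByExpr left 30132 genes in NeuN+, 31863 in NeuN- and 33523 in all libraries together, with TMM factors, a quasi-likelihood test and Benjamini-Hochberg adjustment over all tested genes. Knockouts were compared with WT within a fraction (4 genotypes in 1 fit, absolute log2 difference above 0.5) and fractions within each genotype (all 24 libraries, above 1). Alternatives included a likelihood ratio test and DESeq2 1.42.0. Fits were tested on simulated data. Libraries of a group differed in at least 94.9% of genes. Gene positions came from GENCODE vM21 and promoters from RefSeq GRCm38.p6.

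The rule for named genes took the 10 members, list genes that were called plus a defining member of each list, and the 5 genes with the highest r to Rgs4; of the receptors called between fractions only some are named, and 1 item is not reported here. Members and lists were chosen with earlier results of these data known.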

Additional observations from a re-analysis of the deposited data

How the results depend on the processing

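The number of members called in NeuN- knockouts was 0 in Mutyh-/- and Ogg1-/- under 15 alternatives each, and in DKO it was 0 to 1 when libraries were left out in turn, the 1 being Rgs6 without the first DKO NeuN- library (0.59, adjusted p = 0.0102). The cause was not tested. Between NeuN+ and NeuN- the number called was 6 to 9 under the alternatives in every genotype, the 9 coming from dropping the fold limit. Of 520 member values between fractions 8 passed the limits under an alternative and not as reported, and 2 no longer passed: by library totals Rgs6 in WT (0.87) and Rgs4 in DKO (0.97). Those that passed were Rgs2 in Ogg1-/- and DKO (-1.19 in both by library totals, and down to -1.03 and -1.05 without a library) and Rgs9 in DKO (1.01 without a library). Of 360 values of NeuN+ knockouts against WT none moved by more than 1 SD between replicates, and no called value changed sign. Of these, 180 came from leaving out 1 of 3 libraries, which can hardly move a mean by 1 SD. The limit therefore says little about them. Without the second WT library Rgs4 fell under the fold limit in Mutyh-/- (-0.39) and DKO (-0.42). Per-length levels moved by more than 1 SD in 144 of 160 cases, but division by another length changes a level by itself, so that count does not measure the order. Per kb of locus the order of members in WT changed in both fractions. Per kb of the longest transcript it changed in NeuN+ and stayed the same as per kb of exon in NeuN-. Depth limits Rgs16, at 25 to 113 reads a library.

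With the replicate number as a replicate block, Rgs4 differed by -0.51 in Mutyh-/- and -0.54 in DKO NeuN+ nuclei and Rgs6 by 0.48 in DKO NeuN- nuclei (edgeR, adjusted p = 0.0591), and the block changed no call of a member. Same-numbered libraries of the 2 fractions correlated by 0.0107 to 0.292 in their deviations from group means (mean 0.111). The values were positive in all 12 pairs and over 0.1 in 6 of them, the 3 DKO pairs included. For other numbers the mean was -0.0554. Deviations from a mean of 3 libraries cancel, so this second mean follows from the first and adds no evidence. Within a fraction same-numbered libraries correlated by -0.126 to 0.122 in NeuN+ and -0.223 to 0.270 in NeuN-. A shared source of same-numbered libraries is thus a hint from the data that the labels do not state. With the block 7 members were called between fractions in WT and 6 in each knockout, as without it.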
